A study of Mus musculus with 12 samples.

Results

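In bone marrow-derived macrophages (BMDMs) treated with fenoterol, a group of 40 genes stood above the untreated level at 1 h and below it at 4 h. They are called reversing genes here. They were selected on the measured values themselves, from 53379 genes in the count table. The rule took counts scaled to a library total of 1000000 (CPM), with 0.1 added in the ratios, and asked for a mean of at least 2 CPM over the 12 libraries. It further asked for a ratio of group means to untreated of at least 1.2 at 1 h and of at most 0.79 at 4 h. In all 4 mice the cells had to be above their own untreated cells at 1 h and below them at 4 h. Since all libraries and both comparisons with untreated cells entered this choice, the size and direction of the members' differences are given as a description, without a test of their own.

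The cells came from the femur and tibia of 4 mice of the C57Bl/6J strain, male and between 8 and 20 weeks old according to the methods, and were grown into macrophages with L929 cell conditioned medium. Fenoterol is an agonist of the beta2-adrenergic receptor (B2AR) and was added at 1 µM. Every mouse contributed an untreated culture and cultures with fenoterol for 1 h and for 4 h, so the 12 libraries form 3 groups of 4, and the question was how the macrophage transcriptome responds to acute B2AR activation. The genotype, strain and culture medium were the same in all groups. Whether the untreated culture was lysed with the 1 h or with the 4 h cells is not given in the sources used here. BMDMs are differentiated outside the animal and are a model of macrophages rather than a resident tissue population.

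B2AR couples to the G protein Gs, which activates adenylyl cyclase and raises cAMP. Protein kinase A then phosphorylates the transcription factor CREB, which binds cAMP response elements in promoters and drives a fast wave of early genes, among them transcription factors, phosphatases and phosphodiesterases that dampen the signal. In macrophages, cAMP is known for restraining inflammatory gene expression and for slowing proliferation. A gene that is high early and low late thus crosses its resting level within one response, which a single time point would show as a gain or as a loss.

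Library totals lay between 14580533 and 22580692 counts for untreated cells, between 18288911 and 20549801 for 1 h and between 18446470 and 24153284 for 4 h. All 10 macrophage markers checked, among them *Adgre1*, *Csf1r* and *Lyz2*, averaged at least 2 CPM, with summed levels of 36562 to 41969 CPM over the 12 libraries. Summed neutrophil markers were 31.4 to 63.3 CPM, fibroblast and stromal markers 24.7 to 75.3 CPM, T and NK cell markers 22.4 to 39.5 CPM, and dendritic cell markers 0.972 to 2.69 CPM. Mast cell and basophil markers summed to 0.549 to 1.39 CPM in untreated libraries, 2.03 to 2.43 CPM at 1 h and 1.17 to 2.39 CPM at 4 h, so every 1 h library was above every untreated one, and 7 of these 10 markers averaged under 0.1 CPM. The summed B cell markers were lower in treated cells, at 443 to 592 CPM in untreated libraries, 308 to 406 CPM at 1 h and 105 to 135 CPM at 4 h. This sum came mainly from *Ighm* and *Blnk*, while the B cell markers *Cd79a*, *Ms4a1* and *Pax5* averaged under 0.1 CPM, and the part of both shifts in the members' values was not tested. Fewer cells of a type and less RNA per cell cannot be told apart in such bulk samples.

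Of the 53379 genes, 10566 averaged at least 2 CPM, 970 of these passed the 1 h ratio, 49 also passed the 4 h ratio, and 40 kept both directions in every mouse. Together, the 40 genes took between 0.347% and 0.367% of a library's counts in untreated cells, between 0.469% and 0.499% at 1 h and between 0.218% and 0.249% at 4 h. No library of one group entered the range of another. The ratio of group means at 1 h ranged from 1.21 to 2.79, with a median of 1.35, and the ratio at 4 h ranged from 0.143 to 0.777, with a median of 0.642. Between both time points, the level at 1 h was 1.57 to 9.89 times that at 4 h, with a median of 2.34. In CPM, the fall was the larger move on the log2 scale in 28 genes and the rise in 12. With the scaling of the edgeR fit given below, *Dot1l*, *Pmp22* and *Arhgap25* changed sides, the rise being the larger. At 4 h, 12 genes were at or below a ratio of 0.5, whereas at 1 h only *Maff* and *Mettl13* reached a ratio of 2.

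**Figure D1:**
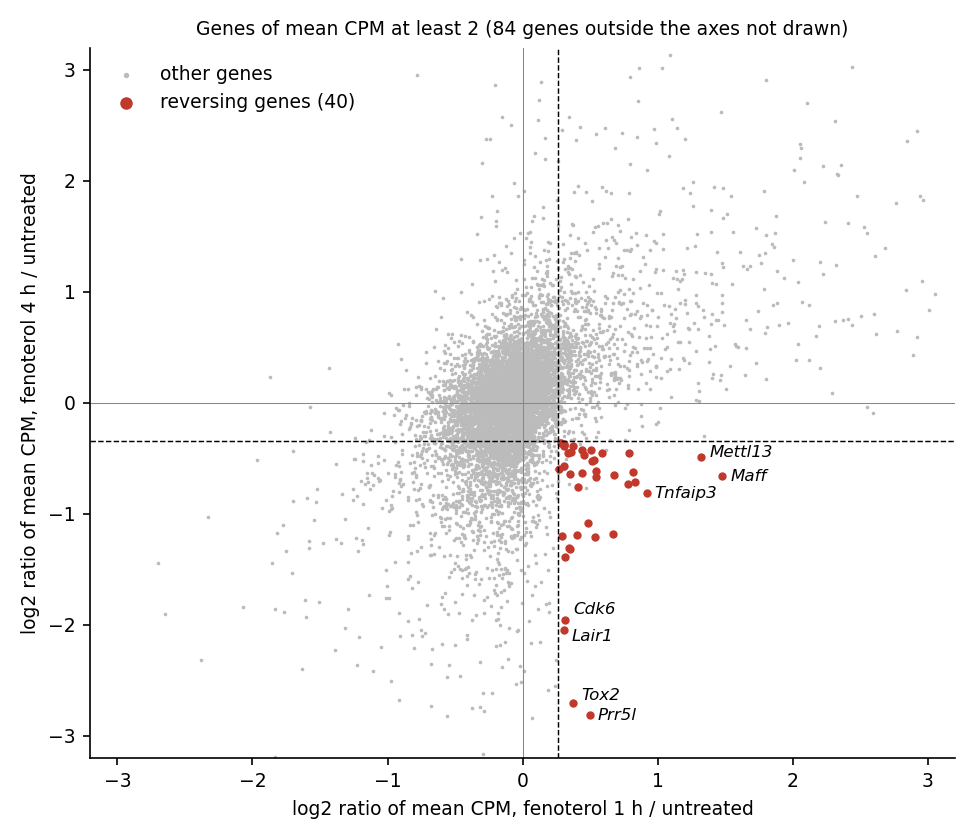
Each point is a gene with a mean of at least 2 CPM, placed by the log2 ratio of group mean CPM (0.1 added) to untreated at 1 h (x axis) and at 4 h (y axis); dashed lines mark the ratios 1.2 and 0.79, red points are the 40 reversing genes, and 84 genes outside the axes are not drawn. The red points fill the lower right corner, most of them near the corner of the dashed lines, with *Prr5l* and *Tox2* lowest and *Maff* and *Mettl13* farthest right.

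The edges of the group were set by the limits rather than by a gap. Just inside the 1 h limit stood *Zfp275*, with a ratio of 1.21, and *Plcd1*, with 1.22, while *Arhgef3* and *Pik3cb* stayed outside with 1.199 each. Just inside the 4 h limit stood *Plcd1*, with 0.777, and *Uhrf1bp1*, with 0.775, while *Bach1*, with 0.791, and *Plscr1*, with 0.793, stayed outside. By mean level, *Maff*, with 2.40 CPM, and *Lrrc32*, with 2.88 CPM, were the lowest members, and *Shisa9*, with 1.75 CPM, was left out. A further 9 genes passed all limits on means but not the condition on every mouse, among them *Il12rb2* and *Rapgef3*.

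For comparison with the whole table, edgeR's quasi-likelihood test was run on the 12386 genes that passed its filter on low counts, with an adjusted p under 0.05 as threshold. At 1 h, 10.0% of all genes tested were called higher and 10.1% lower than untreated, and 31 of the 40 reversing genes were called higher. At 4 h, 19.7% of all genes tested were called higher and 20.4% lower, and all 40 reversing genes were called lower. Against 1 h, 19.8% of all genes tested were called lower at 4 h, and so were all 40 reversing genes. The rule used these same contrasts, so nothing is read from these counts. Both calls, higher at 1 h and lower at 4 h, were made for 0.686% of the genes tested, which is 85 genes, and 31 of these were members. The remaining 54 were kept out by the ratio at 1 h (39 genes), the ratio at 4 h (32 genes), the mean level (1 gene) or the condition on the mice (7 genes), with some failing more than one. Members not called at 1 h were *Rgl1*, *Prr5l*, *Tox2*, *Jcad*, *Tgm1*, *Arap2*, *Lair1*, *Eya4* and *Plcd1*. This fit leaves the pairing by mouse aside, and with the mouse as a block 5 of these 9, *Rgl1*, *Prr5l*, *Tox2*, *Arap2* and *Lair1*, were called higher too. The block raised the calls in the whole table as well, to 13.3% higher at 1 h, 23.8% lower at 4 h and 1.13% (140 genes) with both. In the scaled fit the median log2 fold change of the members was 0.51 at 1 h and -0.67 at 4 h, beside -0.0049 and 0.0042 over all genes tested.

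Without scaling for composition, the calls shifted. With library size as the only scaling, the share of higher genes among all calls was 32.5% at 1 h instead of 49.8%, 53.4% at 4 h instead of 49.2%, and 65.7% between 4 h and 1 h instead of 48.6%, and the median of all genes moved by 0.10 on the log2 scale between the time points. The CPM used by the rule have this library-size scaling, and the members' median log2 ratio at 1 h was accordingly 0.44 in CPM.

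The group was sorted by what the encoded proteins are known to do: immune receptors and their regulators (7 genes), cell cycle and growth arrest (4), transcription and chromatin (7), RNA and protein modification (4), noncoding RNAs (2), GTPase, lipid and mTORC2 signalling (5), and membrane, cytoskeleton and organelle proteins (11). The sorting was made once the members were known and serves only to order the description. The rule fixed both directions in every mouse, so only the sizes are described. The median member's log2 ratio was 0.43 to 0.46 at 1 h and -0.70 to -0.58 at 4 h, depending on the mouse.

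**Figure D2:**
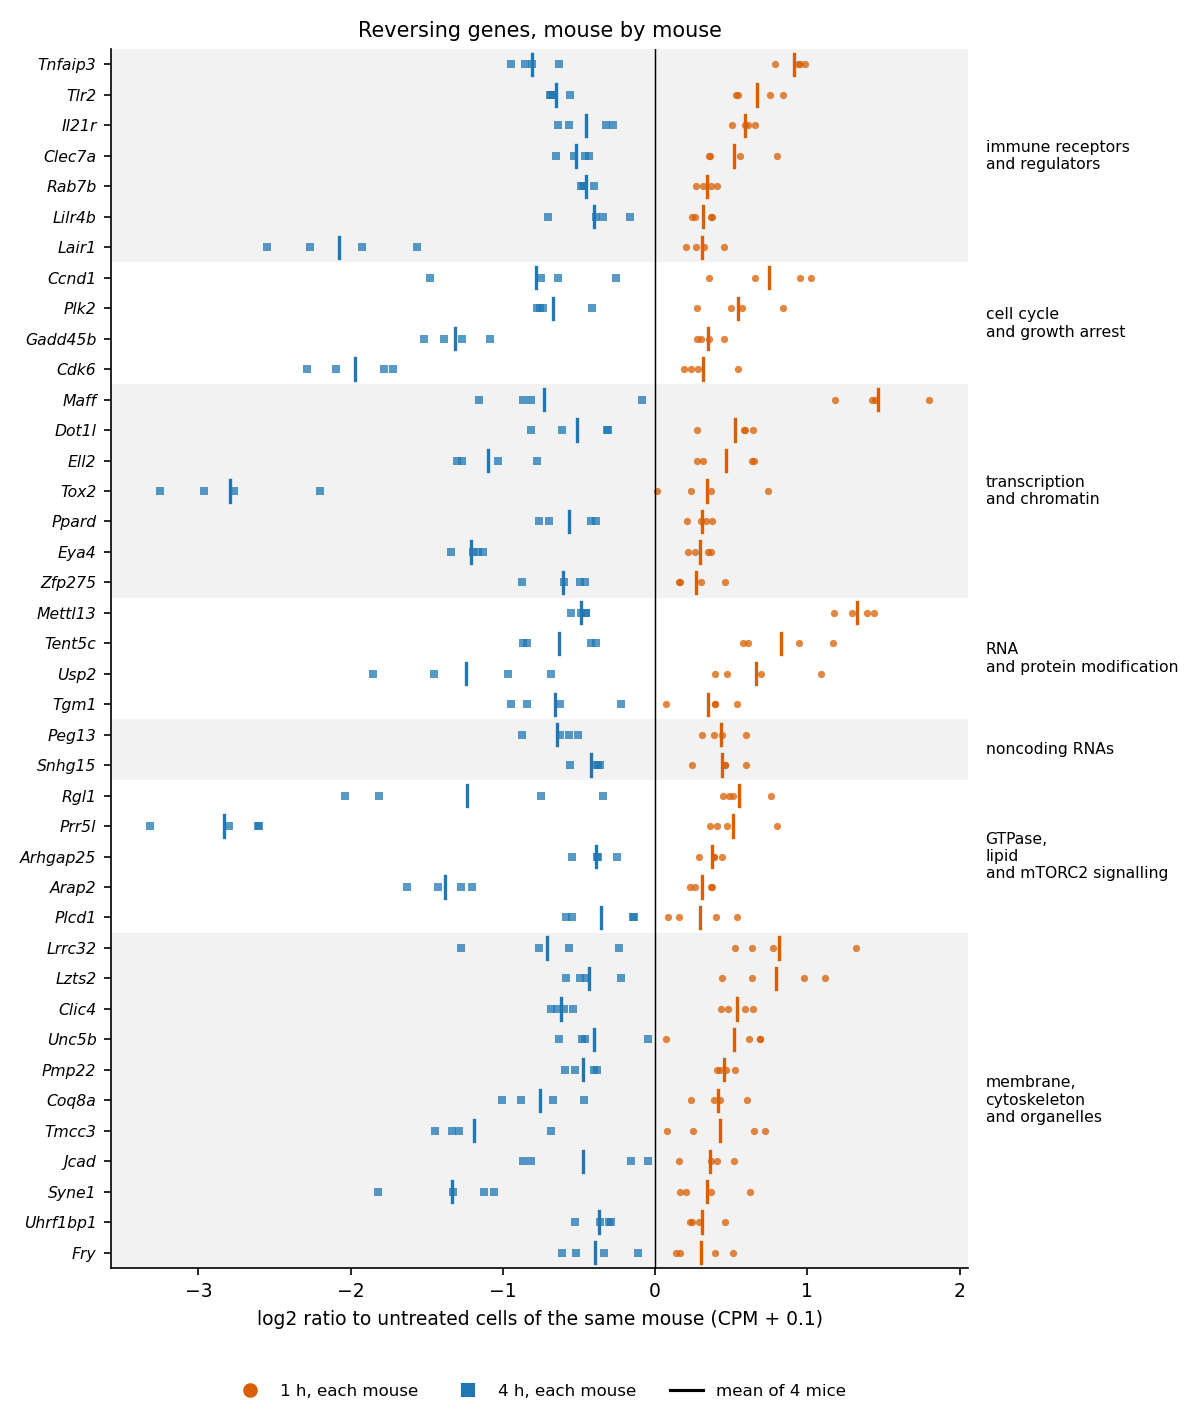
Log2 ratio of CPM (0.1 added) to the untreated cells of the same mouse, at 1 h (orange circles) and at 4 h (blue squares), for each reversing gene and mouse, with vertical bars for the mean of 4 mice and shading by role. By the selection rule all circles lie right of 0 and all squares left of it; *Prr5l*, *Tox2*, *Lair1* and *Cdk6* reach farthest to the left, and *Maff* and *Mettl13* farthest to the right.

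Among the immune receptors and regulators, 2 were pattern recognition receptors. *Tlr2* encodes a Toll-like receptor for bacterial lipopeptides and lies on GRCm38 at chr3:83836272-83841767. Its level was 207, 205, 206 and 206 CPM in the untreated cells of mice 1 to 4, 349.9, 367, 300.5 and 297 CPM after 1 h and 128, 139, 129 and 128 CPM after 4 h. Untreated cells of the 4 mice were almost identical, all 1 h libraries were higher and all 4 h libraries lower, and mice 1 and 2 stood above mice 3 and 4 at 1 h. Relative to untreated cells of the same mouse, the log2 ratio was 0.67 ± 0.15 at 1 h and -0.65 ± 0.06 at 4 h (mean ± SD, n = 4 mice, as in the values of this kind that follow). *Clec7a* encodes Dectin-1, the receptor for fungal beta-glucans, and lies at chr6:129461591-129472779. It measured 134, 151, 136 and 149 CPM in the untreated cells of mice 1 to 4, 234, 223, 174 and 191 CPM after 1 h and 85.4, 112, 98.4 and 103 CPM after 4 h. The groups did not overlap, with log2 ratios of 0.52 ± 0.21 at 1 h and -0.52 ± 0.10 at 4 h, and again mice 1 and 2 were highest at 1 h. The annotation lists *Clec7a* as a polymorphic pseudogene, although it is a well-known receptor gene.

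*Tnfaip3* had the largest reversal of all members, by the smaller of its rise and its fall. It encodes A20, a ubiquitin-editing enzyme that limits NF-κB signalling, and lies at chr10:19000910-19015657. Its level was 34.9, 39.3, 32.6 and 35.3 CPM in the untreated cells of mice 1 to 4, 66.8, 77.9, 63.1 and 61.1 CPM after 1 h and 19.3, 22.4, 21.04 and 18.3 CPM after 4 h. Mouse 2 was highest in each group, the groups stood far apart, and the level at 1 h was 3.31 times that at 4 h. The log2 ratios were 0.91 ± 0.09 at 1 h and -0.81 ± 0.13 at 4 h. *Rab7b* encodes a GTPase of late endosomes that promotes the lysosomal degradation of Toll-like receptors, and its mean levels were 396 ± 26.5 CPM untreated, 501 ± 24.4 CPM at 1 h and 288 ± 20.03 CPM at 4 h (mean ± SD, n = 4 mice, also below). *Il21r*, which encodes the receptor of interleukin-21, averaged 114 ± 12.04 CPM untreated, 172 ± 15.02 CPM at 1 h and 83.2 ± 4.63 CPM at 4 h. In both genes, no library of one group reached the range of another.

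The other 2 immune genes were *Lair1* and *Lilr4b*. *Lair1* encodes an inhibitory receptor for collagen. It measured 89.8, 75.9, 118 and 78.4 CPM in the untreated cells of mice 1 to 4, 123, 94.6, 136 and 94.5 CPM after 1 h and 23.6, 12.9, 24.4 and 26.4 CPM after 4 h. At 1 h its range overlapped with that of untreated cells, since mice 1 and 3 stood above mice 2 and 4 in both, but each mouse was above its own control. The fall was far larger than the rise, with log2 ratios of 0.31 ± 0.10 at 1 h and -2.08 ± 0.42 at 4 h, and the level at 1 h was 5.11 times that at 4 h. *Lilr4b*, a member of the leukocyte immunoglobulin-like receptor family, averaged 492 ± 32.4 CPM untreated, 609.7 ± 26.9 CPM at 1 h and 379 ± 79.2 CPM at 4 h, with a 4 h range from 274 CPM in mouse 2 to 465 CPM in mouse 4 that entered the untreated range. Of its 50-base stretches, 24.5% also occur in *Lilrb4a* or an overlapping gene model, so reads could be shared and its level is uncertain; *Lilrb4a* itself had a log2 fold change of 0.20 at 1 h (adjusted p = 0.297 in edgeR's quasi-likelihood test) and -0.88 at 4 h (adjusted p = 4.06e-05).

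**Figure D3:**
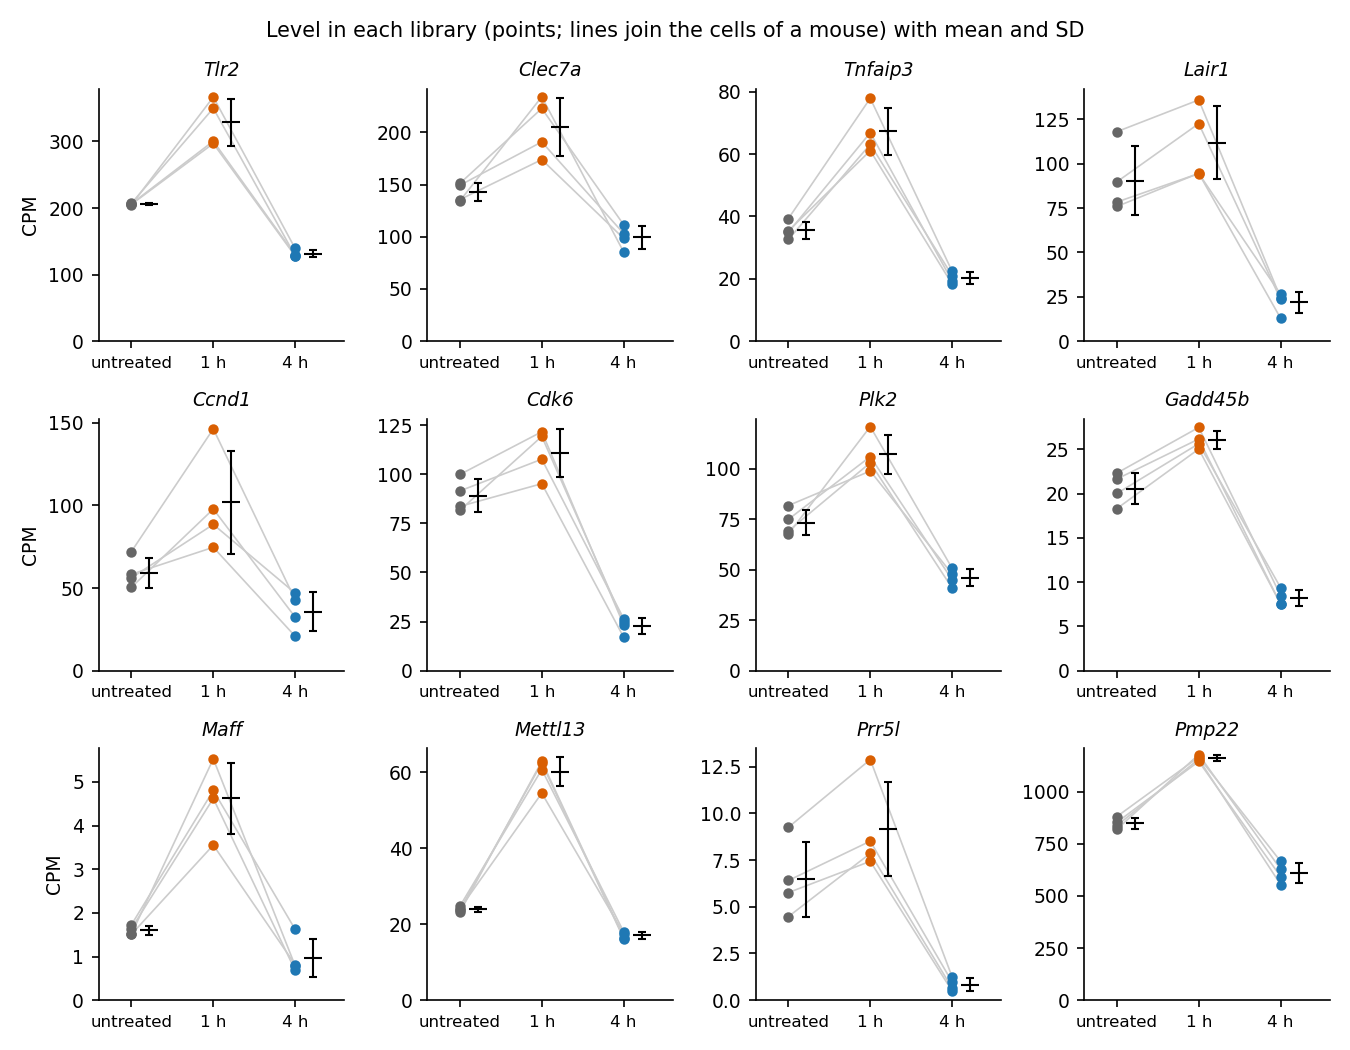
CPM in each library for 12 reversing genes (colored points, with grey lines joining the cells of a mouse), with the mean and SD of the 4 mice beside them; each y axis starts at 0. In all 12 genes each mouse goes up from untreated to 1 h and down to below untreated at 4 h, with a shallow rise and a deep fall in *Lair1*, *Cdk6* and *Prr5l* and a steep rise in *Maff* and *Mettl13*.

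Of the cell cycle genes, 2 encode partners in the same complex. *Ccnd1* encodes cyclin D1, which activates the kinases CDK4 and CDK6 and drives passage through the G1 phase, and *Cdk6* encodes one of those kinases. *Ccnd1*, at chr7:144929931-144939925, measured 50.4, 58.3, 72.04 and 56.2 CPM in the untreated cells of mice 1 to 4, 97.8, 74.6, 146 and 88.5 CPM after 1 h and 32.4, 20.8, 42.9 and 46.9 CPM after 4 h. The mice differed widely, with mouse 3 highest at 1 h and mouse 2 lowest at both times of treatment. The groups did not overlap, yet the log2 ratios of 0.75 ± 0.30 at 1 h and -0.78 ± 0.51 at 4 h had some of the largest SDs of all members. Of its exon bases, 23.4% are covered on the opposite strand by *LTO1*, which moved the other way, with a log2 fold change of -0.39 after 1 h and of 0.17 after 4 h (adjusted p = 0.000548 and 0.047 in edgeR's quasi-likelihood test). The strand option of the counting is not given in the sources used here, and the part of this overlap in the *Ccnd1* values was not tested.

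*Cdk6*, at chr5:3341485-3531008, measured 81.6, 83.6, 99.8 and 91.5 CPM in the untreated cells of mice 1 to 4, 119, 95.1, 122 and 108 CPM after 1 h and 24.7, 17.02, 23.3 and 26.5 CPM after 4 h. The rise was small and overlapped between groups, while every 4 h library was far below every untreated one. Its log2 ratios were 0.31 ± 0.16 at 1 h and -1.97 ± 0.27 at 4 h, and the 4.83 times higher level at 1 h than at 4 h was among the 5 largest such differences. *Plk2* encodes polo-like kinase 2, an early-induced kinase of the cell cycle and stress response, and measured 74.9, 67.6, 81.8 and 69.2 CPM in the untreated cells of mice 1 to 4, 106, 121, 98.9 and 103 CPM after 1 h and 45.01, 50.7, 47.8 and 40.9 CPM after 4 h. Mouse 2 had the largest rise and the smallest fall, and the log2 ratios were 0.55 ± 0.23 at 1 h and -0.67 ± 0.17 at 4 h. *Gadd45b*, a stress-inducible gene that slows growth, was at 22.3, 18.3, 20.02 and 21.7 CPM in the untreated cells of mice 1 to 4, 27.5, 25.04, 25.6 and 26.2 CPM after 1 h and 8.48, 7.54, 9.38 and 7.49 CPM after 4 h. Here the mice were close to each other in each group, and the log2 ratios of 0.34 ± 0.08 at 1 h and -1.31 ± 0.18 at 4 h again showed a fall well beyond the rise.

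In the list of 39 cell cycle and antiproliferative genes tested, these 4 members stood among 35 others with a mixed picture. At 1 h, 11 of the 35 rose, 3 fell and 21 did not pass the test, and at 4 h, 11 rose, 7 fell and 17 did not pass. *Mxd1*, which encodes an antagonist of MYC, was the only other gene of the list called higher at 1 h (log2 fold change 1.42) and lower at 4 h (-0.32). Of other G1 genes, *Ccnd3* rose at both times, by 0.24 and 0.33 on the log2 scale, *Cdk4* had a log2 fold change of -0.08 at 1 h (adjusted p = 0.538) and fell by 0.52 at 4 h, and *Ccnd2* did not pass the test at 1 h (0.50, adjusted p = 0.173) or 4 h (0.45, adjusted p = 0.149). Among growth-arrest genes, *Cdkn1a*, which encodes the CDK inhibitor p21, was higher at both times (2.11 and 1.07), as were *Btg2* (3.08 and 0.81) and *Plk3* (2.66 and 1.61), whereas *Gadd45a* was lower at both (-2.28 and -1.06). All these tests are edgeR's quasi-likelihood test.

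The transcription and chromatin genes held the largest rise of the group. *Maff* encodes a small Maf protein, a leucine zipper factor without an activation domain of its own, and lies at chr15:79346621-79359076. Its level was 1.73, 1.51, 1.64 and 1.51 CPM in the untreated cells of mice 1 to 4, 4.81, 3.55, 4.62 and 5.53 CPM after 1 h and 1.62, 0.813, 0.680 and 0.787 CPM after 4 h, the lowest mean CPM of all members. At 1 h each library was at least 2 times the highest untreated one, whereas at 4 h mouse 1 was within the untreated range and the other 3 mice were below it. The log2 ratios were 1.46 ± 0.25 at 1 h and -0.73 ± 0.46 at 4 h. *Ell2* encodes an elongation factor of RNA polymerase II and measured 45.1, 32.7, 40.6 and 33.1 CPM in the untreated cells of mice 1 to 4, 70.8, 50.8, 49.1 and 41.2 CPM after 1 h and 21.99, 13.2, 16.8 and 19.3 CPM after 4 h. Its ranges overlapped at 1 h because untreated cells of mouse 1 were higher than treated cells of mouse 4, and the log2 ratios were 0.47 ± 0.20 at 1 h and -1.10 ± 0.24 at 4 h. *Dot1l* encodes the histone H3 methyltransferase of transcribed genes and measured 41.2, 31.2, 36.5 and 32.1 CPM in the untreated cells of mice 1 to 4, 49.96, 48.8, 54.9 and 48.2 CPM after 1 h and 23.4, 25.2, 23.9 and 25.8 CPM after 4 h. Its groups did not overlap, and rise and fall were of like size, at 0.52 ± 0.17 at 1 h and -0.51 ± 0.24 at 4 h.

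*Tox2*, which encodes an HMG-box transcription factor, had one of the deepest falls. It measured 9.52, 10.2, 10.2 and 7.57 CPM in the untreated cells of mice 1 to 4, 12.3, 10.2, 17.1 and 8.93 CPM after 1 h and 1.13, 1.41, 2.14 and 0.704 CPM after 4 h. In mouse 2 the rise was only 0.01 on the log2 scale, and in mouse 3 it was 0.74, while the fall was strong in all mice, with log2 ratios of 0.34 ± 0.31 at 1 h and -2.80 ± 0.45 at 4 h. *Eya4*, a transcriptional coactivator with phosphatase activity, kept its order of mice in each group, with mouse 3 highest and mouse 4 lowest, and averaged 3.32 ± 1.01 CPM untreated, 4.10 ± 1.19 CPM at 1 h and 1.39 ± 0.481 CPM at 4 h. *Ppard*, a nuclear receptor for fatty acids, averaged 55.2 ± 4.55 CPM untreated, 68.2 ± 6.83 CPM at 1 h and 37.1 ± 2.59 CPM at 4 h, and *Zfp275*, a zinc finger gene and the smallest rise of all members, averaged 25.4 ± 0.890 CPM untreated, 30.7 ± 2.31 CPM at 1 h and 16.7 ± 1.79 CPM at 4 h. Both were without overlap between groups.

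In the list of immediate-early transcription factors, *Maff* was the only member among 29 genes tested, and of the 28 others 21 rose and 5 fell at 1 h, and 15 rose and 7 fell at 4 h. *Fos* (log2 fold change 4.13 at 1 h and 2.90 at 4 h), *Nr4a1* (5.16 and 1.03) and *Junb* (3.49 and 0.90) were still above untreated at 4 h. *Mafk*, which encodes a close relative of MAFF, rose by 0.29 at 1 h and was at -0.05 at 4 h (adjusted p = 0.625 in edgeR's quasi-likelihood test).

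Because CREB acts through its element near start sites, the promoters of the members were searched. RefSeq start-site windows for GRCm38.p6, from 250 bases before to 50 bases after an annotated start, were found for 33 of the 40 genes. The full cAMP response element (CRE), TGACGTCA, occurred in 4 of these genes: *Snhg15*, *Ell2*, *Plk2* and *Maff*. The 250 bases before the start of each are shown 5′ to 3′ on the strand of the gene, with the element in capitals, since they are the members whose promoters carry it in full.
Snhg15: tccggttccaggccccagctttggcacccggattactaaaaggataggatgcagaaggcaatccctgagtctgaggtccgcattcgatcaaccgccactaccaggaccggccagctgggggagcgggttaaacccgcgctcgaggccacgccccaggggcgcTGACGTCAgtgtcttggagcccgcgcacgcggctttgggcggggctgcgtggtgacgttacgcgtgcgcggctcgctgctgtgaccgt
Ell2: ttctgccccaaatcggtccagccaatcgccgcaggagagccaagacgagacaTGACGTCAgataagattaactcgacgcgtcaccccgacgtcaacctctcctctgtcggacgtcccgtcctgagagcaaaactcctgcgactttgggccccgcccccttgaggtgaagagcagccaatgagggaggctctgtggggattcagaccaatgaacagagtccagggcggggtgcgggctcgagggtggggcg
Plk2: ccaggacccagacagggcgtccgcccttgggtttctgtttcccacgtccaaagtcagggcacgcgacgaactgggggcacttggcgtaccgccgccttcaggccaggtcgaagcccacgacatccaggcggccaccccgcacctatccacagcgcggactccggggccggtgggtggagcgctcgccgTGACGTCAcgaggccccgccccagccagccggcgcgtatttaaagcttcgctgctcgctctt
Maff: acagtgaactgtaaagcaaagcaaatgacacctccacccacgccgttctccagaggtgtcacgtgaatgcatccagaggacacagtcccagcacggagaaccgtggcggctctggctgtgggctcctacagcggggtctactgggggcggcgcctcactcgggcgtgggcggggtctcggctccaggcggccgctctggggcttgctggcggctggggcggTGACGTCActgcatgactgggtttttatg
These stretches lie at chr11:6528761-6529010 on the minus strand (*Snhg15*) and, on the plus strand, at chr13:75707234-75707483 (*Ell2*), chr13:110394794-110395043 (*Plk2*) and chr15:79347270-79347519 (*Maff*). Counted from the start, the first base of the element is at position -88 in *Snhg15*, -198 in *Ell2*, -62 in *Plk2* and -29 in *Maff*. Their log2 ratios of group means at 1 h were 0.44, 0.48, 0.55 and 1.48 in that order.

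The CRE was found in 12.1% of the members with a window, in 3.60% of all genes tested, in 8.06% of 62 genes that rose at 1 h only and in 2.26% of 398 genes that fell at 4 h only. The last 2 sets met the same limits and condition on the mice at one time and had a ratio between 0.9 and 1.1 at the other. Counted by window, the shares were 6.56% of 61 windows of members, 6.41% of 78 windows of genes that rose at 1 h only and 3.02% of the windows of all genes tested, so the first 2 were nearly level, and members had more windows per gene. The core of the element, TGACG, on either strand, was in 39.4% of members, 48.4% of genes that rose at 1 h only and 35.9% of all genes tested, and each full element also counts as a core. By window the order of members and all genes tested was the opposite for the core, at 26.2% and 31.1%. The AP-1 site TGACTCA was in 12.1% of members against 4.55% of all genes tested, the TATA box TATAAA in 27.3% against 8.61%, and the κB motif in 12.1% against 6.17%. By window these shares were 8.20% against 3.78%, 16.4% against 7.09%, and 8.20% against 5.18%. The κB motif was in 8.54% of genes that fell at 4 h only. TATAAA was counted anywhere in the window, with first bases from -246 in *Prr5l* to 43 in *Clec7a*. These are letters found on either strand in a fixed window, and each share of members by gene rests on 4 to 13 of 33 genes.

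**Figure D4:**
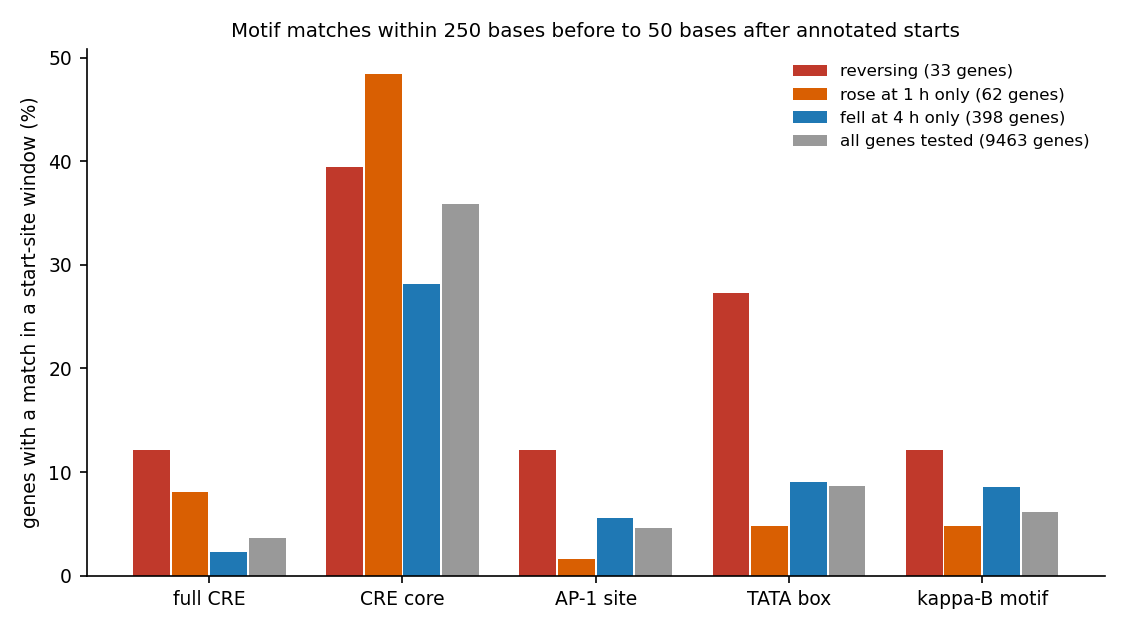
Share of genes (y axis, %) with at least one match of each motif in a RefSeq window of 250 bases before to 50 bases after an annotated start, for reversing genes, genes that rose at 1 h only, genes that fell at 4 h only and all genes tested. The red bars of the reversing genes stand at 12.1% for the full CRE and at 27.3% for the TATA box, beside 3.60% and 8.61% in all genes tested, and rest on 4 and 9 of 33 genes. By window, not drawn, these shares were 6.56% and 16.4%, beside 3.02% and 7.09%.

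Genes for RNA and protein modification included the second of the members above a ratio of 2. *Mettl13* encodes a methyltransferase of a translation elongation factor and measured 23.8, 23.2, 24.1 and 24.7 CPM in the untreated cells of mice 1 to 4, 62.4, 62.9, 54.5 and 60.7 CPM after 1 h and 16.2, 16.5, 17.5 and 18.01 CPM after 4 h. The replicates were tight, with log2 ratios of 1.32 ± 0.12 at 1 h and -0.49 ± 0.04 at 4 h. *Tent5c* encodes a noncanonical poly(A) polymerase that stabilizes mRNAs and measured 6.91, 4.94, 8.69 and 5.78 CPM in the untreated cells of mice 1 to 4, 13.4, 11.2, 13.3 and 8.67 CPM after 1 h and 5.13, 2.66, 4.81 and 4.39 CPM after 4 h. Its ranges overlapped with the untreated cells at both times, and the 4 untreated cultures themselves spread widely. The log2 ratios were 0.82 ± 0.28 at 1 h and -0.63 ± 0.26 at 4 h. *Usp2*, a deubiquitinating enzyme, measured 3.28, 2.74, 3.23 and 3.25 CPM in the untreated cells of mice 1 to 4, 5.36, 5.96, 4.53 and 4.31 CPM after 1 h and 2.00, 1.36, 1.12 and 0.828 CPM after 4 h. Mouse 2, lowest when untreated, was highest at 1 h, and mouse 4 was lowest at both times of treatment. The log2 ratios were 0.66 ± 0.31 at 1 h and -1.24 ± 0.52 at 4 h. *Tgm1*, a transglutaminase that cross-links proteins, averaged 3.21 ± 0.214 CPM untreated, 4.13 ± 0.526 CPM at 1 h and 2.02 ± 0.389 CPM at 4 h.

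Both noncoding RNAs were without overlap between groups. *Snhg15*, a host gene of small nucleolar RNAs, measured 7.04, 6.58, 5.71 and 6.51 CPM in the untreated cells of mice 1 to 4, 8.36, 9.08, 8.71 and 8.98 CPM after 1 h and 5.35, 5.04, 4.42 and 4.39 CPM after 4 h. All 1 h libraries were above and all 4 h libraries below the untreated ones, with log2 ratios of 0.44 ± 0.15 at 1 h and -0.42 ± 0.09 at 4 h. *Peg13*, an imprinted RNA, averaged 50.8 ± 2.07 CPM untreated, 68.9 ± 8.63 CPM at 1 h and 32.7 ± 4.26 CPM at 4 h.

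In CPM, the 5 signalling genes were all farther below untreated at 4 h than above it at 1 h. In the scaled edgeR fit, *Arhgap25* was the exception, its rise (0.44 on the log2 scale) being slightly larger than its fall (-0.41). *Prr5l*, which encodes a partner of the kinase complex mTORC2, had the deepest fall and the largest difference between time points of all members. It measured 4.47, 5.76, 6.41 and 9.26 CPM in the untreated cells of mice 1 to 4, 7.86, 7.44, 8.52 and 12.9 CPM after 1 h and 0.648, 0.488, 0.972 and 1.24 CPM after 4 h. Mouse 4 was highest in all groups, the ranges at 1 h overlapped with untreated cells, and all 4 h libraries were far below any other. The log2 ratios were 0.51 ± 0.20 at 1 h and -2.83 ± 0.34 at 4 h, and the level at 1 h was 9.89 times that at 4 h. *Rgl1*, an exchange factor for Ral GTPases, measured 45.2, 81.7, 56.2 and 66.4 CPM in the untreated cells of mice 1 to 4, 76.8, 114, 76.7 and 94.8 CPM after 1 h and 35.6, 19.8, 33.5 and 18.8 CPM after 4 h. At 4 h mice 2 and 4, the highest when untreated, were the lowest, so that the fall varied between mice, at 0.55 ± 0.14 at 1 h and -1.24 ± 0.82 at 4 h. *Arhgap25*, a GTPase-activating protein for Rac in leukocytes, was much steadier, at 225, 199.99, 196 and 201 CPM in the untreated cells of mice 1 to 4, 275, 261, 257 and 272 CPM after 1 h and 154, 154, 165 and 155 CPM after 4 h, without overlap between groups. *Arap2*, a GTPase-activating protein for Arf, averaged 8.46 ± 1.37 CPM untreated, 10.5 ± 2.20 CPM at 1 h and 3.16 ± 0.359 CPM at 4 h, and *Plcd1*, a phospholipase C, averaged 3.99 ± 0.656 CPM untreated, 4.88 ± 0.497 CPM at 1 h and 3.08 ± 0.294 CPM at 4 h. *Plcd1* was the member with the smallest swing and overlapped at both times.

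*Pmp22*, which encodes a tetraspan membrane protein of myelin and other cells, had the highest level of all members per kilobase of exon. It measured 819.8, 838, 881 and 853 CPM in the untreated cells of mice 1 to 4, 1179, 1157, 1167 and 1146 CPM after 1 h and 629, 555, 666 and 593 CPM after 4 h. The 3 groups were narrow and well apart, with log2 ratios of 0.46 ± 0.05 at 1 h and -0.48 ± 0.10 at 4 h. *Clic4*, a chloride intracellular channel protein, measured 241, 207, 236 and 216 CPM in the untreated cells of mice 1 to 4, 377, 312, 329 and 292 CPM after 1 h and 155, 142, 147 and 143 CPM after 4 h. Mouse 1 was highest in each group, and the log2 ratios were 0.54 ± 0.10 at 1 h and -0.62 ± 0.06 at 4 h. *Lrrc32* encodes GARP, which tethers latent TGF-β to the cell surface, and measured 3.14, 2.74, 2.14 and 2.13 CPM in the untreated cells of mice 1 to 4, 5.46, 4.32, 3.11 and 5.48 CPM after 1 h and 1.24, 1.57, 1.80 and 1.41 CPM after 4 h. Its ranges met at 1 h, as untreated cells of mouse 1 were level with treated cells of mouse 3, and the log2 ratios were 0.81 ± 0.35 at 1 h and -0.71 ± 0.43 at 4 h.

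The other 8 genes of this role had log2 ratios of group means between 0.30 and 0.79 at 1 h and between -1.31 and -0.37 at 4 h. *Syne1*, which encodes a protein of the nuclear envelope that links it to the cytoskeleton, averaged 63.6 ± 4.57 CPM untreated, 81.3 ± 13.6 CPM at 1 h and 25.5 ± 5.13 CPM at 4 h. *Tmcc3*, an endoplasmic reticulum membrane protein, averaged 39.05 ± 8.43 CPM untreated, 51.5 ± 1.32 CPM at 1 h and 17.1 ± 3.60 CPM at 4 h. *Coq8a*, needed for coenzyme Q synthesis in mitochondria, averaged 21.2 ± 2.38 CPM untreated, 28.2 ± 1.59 CPM at 1 h and 12.5 ± 1.44 CPM at 4 h, and 6.91% of its exon bases are covered by *Cdc42bpa* on the opposite strand. The remaining 5 were *Lzts2*, *Unc5b*, *Jcad*, *Uhrf1bp1* and *Fry*. *Unc5b*, a netrin receptor, overlapped with untreated cells at both times. Matched by mouse, its smallest log2 ratios were 0.07 at 1 h in mouse 1 and -0.04 at 4 h in mouse 3, both just past 0.

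Counted over all 40 genes, ranges of libraries did not overlap with untreated cells for 26 genes at 1 h and for 33 at 4 h, and for 22 at both. Of all 10566 genes with a mean of at least 2 CPM, 8.71% were higher at 1 h without overlap, 19.2% lower at 4 h, and 0.416% both. Between 1 h and 4 h all 40 were without overlap, as were 14.3% of these genes in the same direction. The rule, with its condition on every mouse, used these same values, so nothing is read from the counts. The larger moves were not always the clearer ones. *Pmp22* and *Rab7b* were clear at both times with ratios well under 2, while *Prr5l*, *Tox2*, *Cdk6*, *Lair1* and *Arap2*, which fell most, overlapped at 1 h. The median coefficient of variation between mice was 8.73% for members in untreated cells, 11.2% at 1 h and 11.4% at 4 h. Over all genes with a mean of at least 2 CPM it was 7.86%, 8.27% and 8.15%. Mouse 1 had the largest rise in 13 genes, mouse 2 in 9, mouse 3 in 12 and mouse 4 in 6, and the largest fall was in mouse 1 for 11, in mouse 2 for 14, in mouse 3 for 5 and in mouse 4 for 10. In 9 genes the same mouse was highest in all 3 groups, namely mouse 3 for *Eya4*, *Rab7b*, *Tox2* and *Uhrf1bp1*, mouse 2 for *Il21r* and *Tnfaip3*, mouse 1 for *Clic4* and *Ell2*, and mouse 4 for *Prr5l*.

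Per kilobase of exon, *Pmp22* was the most abundant member in untreated BMDMs, at 360.3 CPM per kb, followed by *Lilr4b* at 90.4, *Rab7b* at 85.6, *Tlr2* at 68.3 and *Clec7a* at 54.1 CPM per kb. The least abundant were *Eya4* at 0.353, *Fry* at 0.433 and *Jcad* at 0.438 CPM per kb. In CPM, 14 members averaged under 10, 18 from 10 to 100 and 8 at least 100. Among all genes with a mean of at least 2 CPM, 10 members were in the top 25% by untreated level and 14 in the bottom 25%.

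The members were spread over 17 chromosomes. Chromosome 10 held 8 of them, *Tnfaip3*, *Syne1*, *Eya4*, *Lilr4b*, *Unc5b*, *Dot1l*, *Gadd45b* and *Tmcc3*, of which *Dot1l* (chr10:80755206-80795461) and *Gadd45b* (chr10:80930073-80932204) are near neighbors. No share by chromosome was computed for all genes tested, so nothing is read from this count. By annotation, 37 were protein coding. Their median span was 32466 bases, beside 21927 for all genes tested, 27693 for genes that rose at 1 h only and 46502 for genes that fell at 4 h only. Median exonic length was 5366 bases, beside 4335 for all genes tested, 4880 for genes that rose at 1 h only and 5385 for genes that fell at 4 h only. The 3′ untranslated regions of the 38 genes with one had a median of 1702 bases, beside 978 for all genes tested, 1695 for genes that rose at 1 h only and 1136 for those that fell at 4 h only. AU-rich sequences in these regions are known as binding sites of mRNA decay factors. The heptamer TATTTAT was in 36.8% of members, 45.5% of genes that rose at 1 h only and 27.4% of all genes tested, and the pentamer ATTTA in 81.6%, 80.5% and 66.3%. Per kilobase of 3′ untranslated region, members had 0.27 heptamers and 1.69 pentamers, and all genes tested had 0.29 and 1.81.

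Members made up 0.323% of all genes tested, 10.3% of the cell cycle list, 6.25% of the pattern recognition receptors, 3.85% of the NF-κB inhibitors and mRNA decay factors, 3.45% of the immediate-early factors and 2.50% of the ubiquitin-pathway genes. The lists were chosen with the members known, so nothing is read from these shares, and they serve to set the members beside the other genes of each pathway. Of 32 pattern recognition receptors tested, 2 were members, and of the 30 others 7 rose and 7 fell at 1 h, while 7 rose and 10 fell at 4 h. *Tlr4*, the receptor of lipopolysaccharide, fell at 1 h (log2 fold change -0.78) and was at 0.10 at 4 h (adjusted p = 0.442 in edgeR's quasi-likelihood test), *Tlr7* fell at both times (-0.67 and -2.12), and *Cd14* rose at both (2.39 and 2.52). Of 26 inhibitors of NF-κB and mRNA decay factors, *Tnfaip3* was the only member, and of the 25 others 5 rose and 9 fell at 1 h, while 8 rose and 11 fell at 4 h. *Nfkbie* and *Zc3h12a* rose at 1 h (1.67 and 1.499) and were still higher at 4 h (0.48 and 0.49), whereas *Nfkbia* fell at both times (-0.27 and -0.54). Of 40 ubiquitin-pathway genes, *Usp2* was the only member, and of the 39 others 6 rose and 6 fell at 1 h, while 8 rose and 14 fell at 4 h. A further 10 gene lists, among them cAMP feedback, chemokines and cytokines, the circadian clock and lipid metabolism, held 0 members. This depends on the genes put on each list, and the members *Ppard* and *Il21r* were on none.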

How the data were processed

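RNA of 12 BMDM libraries was analysed. Per the labels, stranded mRNA libraries were made, and the submitters' processing notes name TopHat2 2.0.11, HTSeq 0.8.0 and GRCm38. The authors deposited raw counts per gene, whole numbers without normalization. The strand option and annotation release are not given in the sources used here. From the deposited counts, CPM were computed by column total for the rule, and edgeR 4.0.16 (R 4.3.3; TMM, filterByExpr, quasi-likelihood test, 1 fit over 3 groups, no covariate, Benjamini-Hochberg adjustment, threshold 0.05) was run on 12386 genes. The fit was checked on simulated counts, where of 100 genes changed 1.3-fold at 1 h it recovered 38, and of 100 changed 2-fold it recovered 77, with 8 false calls over 12247 genes. These counts had 200 changed genes and no mouse effect, so they did not check the pairing or the scaling for composition. Symbols and coordinates came from GENCODE M21 (GRCm38), which matched 53274 of 53379 genes and all 40 members, and promoter sequence from RefSeq (GRCm38.p6).

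The members, roles and gene lists were chosen with earlier results of these data known. Named were the 15 members with the largest reversal size (the smaller of rise and fall on the log2 scale), the 8 with the highest mean CPM, the 5 with the largest difference between time points and those on the 16 gene lists, 24 in all. The other 16 members are given by role, and those shown with values were chosen after their values were seen. Alternatives were DESeq2 1.42.0, limma-voom (limma 3.58.1), RLE or library-size scaling, other filters and limits, fits restricted to 2 groups, a block for the mouse, and leaving out each library or mouse. Libraries were paired by mouse from the labels: deviations from group means correlated at r = 0.290 to 0.561 within a mouse (12 pairs) and at -0.304 to 0.0912 between mice (36 pairs). With positive values within a mouse, taking deviations from group means by itself pushes those between mice down. Replicates differed by more than counting error (chi-square per degree of freedom 9.13 to 18.7). Results for 1 gene list and 1 marker are not reported here.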

Additional observations from a re-analysis of the deposited data

Results flagged for a closer look

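All 40 reversing genes were above untreated at 1 h and below it at 4 h in all mice. The rule asked for this, and the difference between the time points was not tested as a finding.

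Within groups of 4 libraries, 5 values of named members stood apart from the other 3 by more than Dixon's 95% limit; 72 groups were looked at, and chance flags about 1 in 20. The gap is given as a share of the group's range. *Maff* at 4 h was at 1.62 CPM in mouse 1 and at 0.680 to 0.813 CPM in the other mice (0.859), and leaving that library out moved its 4 h log2 fold change from -0.75 to -1.10. Untreated *Usp2* was at 2.74 CPM in mouse 2 and at 3.23 to 3.28 CPM in the others (0.911), and leaving it out gave a 1 h log2 fold change of 0.70, with an adjusted p of 0.0569 in edgeR's quasi-likelihood test. *Tlr2* at 4 h was at 139 CPM in mouse 2, against 128 to 129 CPM (0.871). *Arhgap25* was at 225 CPM in untreated cells of mouse 1, against 196 to 201 CPM (0.830), and at 165 CPM at 4 h in mouse 3, against 154 to 155 CPM (0.939). Without these last 3 libraries, *Tlr2* and *Arhgap25* kept their calls.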

How the results depend on the processing

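The members depend on the limits and on the scaling. With TMM-scaled CPM the rule gave 66 genes, which held all 40 members and 26 more, and with DESeq2's size factors it gave 65. With ratios of 1.5 and 0.67 it gave 7. Leaving out 1 mouse gave 40 to 53 genes, and 29 members were kept in all 4 such runs. At an adjusted p under 0.01, 18 members were called both higher at 1 h and lower at 4 h, against 31, and over all genes tested 33 were, against 85. With the mouse as a block, 36 members were called higher at 1 h, 40 lower at 4 h and 36 both, and no call was lost, while over all genes tested the calls rose from 10.0% to 13.3% higher at 1 h, from 20.4% to 23.8% lower at 4 h and from 85 to 140 genes with both. Leaving out 1 library, 24 to 32 members were called higher at 1 h, 34 to 39 lower at 4 h, 40 to 40 lower at 4 h than at 1 h, and 23 to 31 both. Over all genes tested, the shares in these runs were 8.54% to 9.95%, 18.4% to 20.5%, 17.7% to 20.7% and 0.440% to 0.607%, in that order. The median log2 fold change of the members was then 0.49 to 0.53 at 1 h, -0.71 to -0.64 at 4 h and -1.38 to -1.28 between the time points. With library size as the only scaling it was 0.44 at 1 h and -1.24 between the time points.

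For the named genes, 40 alternative results were weaker and 10 stronger, 0 reversed and 956 kept their side of the threshold. The rule fixed the direction of the members in these libraries, so the absence of reversals says nothing of stability. Among the weaker, the 4 h call of *Maff* was lost in 6 of the runs without 1 library (adjusted p up to 0.101 in edgeR's quasi-likelihood test), and that of *Lrrc32* without untreated replicate 1 (0.0511). The 1 h calls of *Cdk6*, *Ell2* and *Lilr4b* were lost in 4 such runs each, as was the 4 h call of *Tent5c*, and that of *Usp2* at 1 h in 3. Over all alternatives, the stricter threshold included, the 1 h results of *Cdk6*, *Ell2* and *Lilr4b* were weaker in 6 each. Those of *Maff* and *Tent5c* at 4 h were weaker in 8 and 5, and that of *Usp2* at 1 h in 4. The rises of *Rgl1*, *Prr5l*, *Tox2* and *Lair1* passed the threshold with the mouse as a block. Counting every alternative, that of *Rgl1* passed in 6 and that of *Prr5l* in 2. The cause was not tested. Counting depth was not tested as a limit on these calls.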
